A study of Mus musculus with 6 samples.

Results

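Toll-like receptors are membrane proteins that bind molecules of microbes and of damaged tissue and start inflammatory transcription. The part of the transcriptome described here is a set of 10 genes of this system, chosen by symbol from a count table of 23867 genes: the receptors Tlr1, Tlr2, Tlr3, Tlr4 and Tlr6, the co-receptors Cd14 and Ly96, the adaptors Myd88 and Tirap, and the inhibitory kinase-like protein Irak3. All 10 were in the table and all 10 passed the filter on low counts. The libraries were bulk RNA-seq of mouse chondrocytes, the cells of cartilage, 3 from mice labelled MFN2wt (the wild type) and 3 from mice labelled MFN2Col2a1-/- (the knockout, with table columns CRE1 to CRE3). Mfn2 codes for mitofusin 2, which joins mitochondria at their outer membranes, and Col2a1 is the main collagen gene of cartilage, whose promoter is widely used to drive Cre recombinase in chondrocytes. The labels name neither the Cre line nor an allele, and the sources used here do not give strain, age, treatment or culture, nor whether each library came from its own animal. The p-values therefore measure only the spread between these libraries.

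At the cell surface Tlr4 works with Ly96 and takes lipopolysaccharide from Cd14, while Tlr2 forms heterodimers with either Tlr1 or Tlr6 that bind bacterial lipopeptides. Tlr3 sits in endosomes and binds double-stranded RNA. Myd88 carries the signal of these receptors other than Tlr3 to kinases of the IRAK family, Tirap bridges Tlr2 and Tlr4 to Myd88, and Irak3 dampens the Myd88 route. Chondrocytes are known to express Tlr2, Tlr3 and Tlr4, and fragments of cartilage matrix can act as ligands, whereas macrophages express nearly the whole family.

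Cd14 and Tlr1 were lower in the knockout, 2.62-fold and 5.89-fold. Tlr2, Tlr4, Tirap and Irak3 were higher with TMM scaling (trimmed mean of M values, which sets libraries level on most genes), by 1.18 to 1.40-fold, and Tlr3, Tlr6, Ly96 and Myd88 did not pass the test. Thus 4 of 10 genes were called higher, where 30.7% of all 15028 genes tested were, and 2 were called lower, where 32.1% were (Benjamini-Hochberg adjusted p under 0.05, edgeR quasi-likelihood test). In either direction 6 of 10 were called, against 62.7% of all genes, so the set as a whole was called about as often as the rest of the transcriptome. The libraries of the 2 groups did not overlap for the same 6 genes, 4 higher and 2 lower, against 67.1% of all genes tested (32.3% higher and 34.8% lower). Their median log2 fold change was 0.19, against −0.02 over all genes tested. The smaller rises depended on the scaling. With total counts in place of TMM factors the median of all genes moved by −0.21, the median of the 10 genes was −0.02, and 2 were called higher (18.6% of all genes) and 4 lower (50.8% of all genes).

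The promoters of Tlr2 and of its partners Tlr1 and Tlr6 are shown because these 3 receptors form 2 heterodimers whose partner transcripts moved differently. Each is the RefSeq window (GRCm38.p6, 5′ to 3′ on the minus strand, which is the strand of all 3 genes) of 250 bases before to 50 after a start site. Capitals in Tlr2 (chr3:83841559-83841858) mark matches to the kappa B motif, bound by NF-kB. Capitals in Tlr1 (chr5:64933509-64933808, the first of 2 listed starts) mark GAGGAAGT, a motif of PU.1, the master regulator of macrophages. Capitals in Tlr6 (chr5:64959117-64959416, the first of 2 listed starts) mark a pair of overlapping reverse-strand matches to the core of the interferon-stimulated response element, ISRE (GAAA, any 2 bases, GAAA).
Tlr2: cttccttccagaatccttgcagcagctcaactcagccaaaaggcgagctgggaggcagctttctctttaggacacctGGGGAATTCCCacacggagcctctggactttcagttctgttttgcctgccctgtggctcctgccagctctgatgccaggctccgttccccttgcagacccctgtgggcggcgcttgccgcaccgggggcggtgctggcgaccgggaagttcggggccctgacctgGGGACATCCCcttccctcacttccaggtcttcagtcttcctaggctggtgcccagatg
Tlr1: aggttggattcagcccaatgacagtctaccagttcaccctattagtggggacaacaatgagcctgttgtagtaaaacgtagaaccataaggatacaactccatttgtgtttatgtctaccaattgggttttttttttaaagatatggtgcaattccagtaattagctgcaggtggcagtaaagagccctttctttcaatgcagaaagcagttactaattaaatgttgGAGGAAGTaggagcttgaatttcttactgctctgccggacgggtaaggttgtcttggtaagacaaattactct
Tlr6: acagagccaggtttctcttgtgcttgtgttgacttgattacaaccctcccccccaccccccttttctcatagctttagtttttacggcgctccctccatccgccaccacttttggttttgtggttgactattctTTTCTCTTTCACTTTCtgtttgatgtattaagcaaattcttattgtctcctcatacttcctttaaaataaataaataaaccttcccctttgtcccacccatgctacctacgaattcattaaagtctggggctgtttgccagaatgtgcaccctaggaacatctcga

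The bases after the Tlr2 start and the second Tlr6 start occur in a GENCODE M21 transcript of the gene, whereas those after the printed Tlr6 start and both Tlr1 starts do not, so these starts rest on RefSeq alone. The search covered 11 windows for 7 of the 10 genes. It left out Cd14, and Tlr4 and Ly96 had no listed window. On either strand, 8.46% of all 32851 RefSeq windows match the kappa B motif, 3.20% match GAGGAAGT and 3.44% match the ISRE core. Tlr2 had 5 kappa B matches, which overlap at 2 places, from 173 and from 8 bases before the start site. Tlr3 had 1 kappa B match, and the second starts of Tlr1 and Tlr6 held none of these motifs. Myd88 had 1 match to the ISRE core, from 40 bases before the start. GAGGAAGT was found in the first window of Tlr1, from 23 bases before the start, and in none of the other 10 windows searched. Cd14, the other gene called lower, was not among those searched, so the motif cannot be called particular to Tlr1. The shorter GAGGAA, contained in it and present in 28.3% of windows, was found there and in 1 window of Irak3. These are matches of letters and were not tested as binding sites.

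Column totals were 31481779 to 37814723 counts for CRE1 to CRE3 and 39267487 to 40152687 for the wild-type libraries. The targeted gene went with the labels: Mfn2 was at 56.5 to 64.0 CPM (reads scaled to an equal library total, with TMM factors) in knockout libraries and at 106 to 108 CPM in wild-type libraries, a log2 fold change of −0.84 (SE 0.046). Chondrocyte markers were present in both groups and lower in the knockout, with 13 of 16 called lower and 2 higher (Col2a1 at 509 ± 29.0 CPM against 3397 ± 71.3, Acan at 49.0 against 352, Ucma at 52.3 against 261). Macrophage markers were lower for 18 of 18 genes, and their summed level was 117 to 121 CPM in knockout libraries and 1594 to 1629 CPM in wild-type libraries, a 13.5-fold difference. No macrophage marker was at 0 counts in every knockout library, and Aif1, named after its value was seen, had 0 counts in CRE3. Of 11 fibroblast and synovial lining genes, 6 were called higher (among them Dcn, Prg4 and Col3a1) and 4 lower. Over all genes tested 30.7% were called higher and 32.1% lower. Of 9 neutrophil genes, Ly6g, Elane, Mpo, Ngp and Cxcr2 were too low to be tested. Of the 4 tested, 2 rose (Camp and S100a8), 1 fell (Csf3r) and S100a9 did not pass the test. The sums were 6.08 to 6.81 CPM in knockout libraries against 1.57 to 1.92, a difference that rests on Camp and S100a8. Of 5 endothelial genes tested, 1 rose (Pecam1; 0 without CRE2 or without the first wild-type library) and 2 fell (Vwf and Kdr), with sums of at most 7.57 CPM, and no lymphocyte gene passed the filter (at most 0.213 CPM summed). In bulk libraries fewer cells of a type and less RNA per cell cannot be told apart, and the part of other cell types in the results below was not tested.

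Tlr4, the lipopolysaccharide receptor, had the highest CPM of the 10 genes. It stood at 133, 157 and 156 CPM in CRE1, CRE2 and CRE3 and at 127, 113 and 123 CPM in wild-type libraries 1 to 3. Every knockout library was above every wild-type library, with CRE1 the closest to them. The means were 149 ± 13.7 and 121 ± 7.07 CPM (SD, n = 3 each), and the log2 fold change came to 0.30 (SE 0.058, adjusted p = 0.000338, edgeR). With total counts in place of TMM factors the change was 0.09 and was not called (adjusted p = 0.190), nor was it against a 1.2-fold threshold (adjusted p = 0.219) or in the 3 fits on log2 FPKM (adjusted p up to 0.461, limma). In the deposited FPKM, scaled to column totals, the groups overlapped, with CRE1 at 14.6 and the wild type at 14.4 to 16.2.

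Cd14, which hands lipopolysaccharide to the Tlr4 complex, was the most clearly lowered of the 10. It stood at 28.6, 28.8 and 28.6 CPM in the knockout and at 75.4, 76.4 and 73.5 CPM in the wild type. The 3 knockout libraries were nearly equal and far below every wild-type library. The means were 28.7 ± 0.141 and 75.1 ± 1.49 CPM, and the log2 fold change came to −1.39 (SE 0.045, adjusted p = 2.94e-13, edgeR). The fall was between −1.60 and −1.37 under all 19 other settings. The summed macrophage markers fell over the same libraries, but by 13.5-fold, and Cd14 counted per 100 CPM of those markers was higher in the knockout, 24.1 ± 0.506 against 4.67 ± 0.138.

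Ly96, the soluble subunit that holds the lipid in the Tlr4 complex, did not pass the test. It stood at 16.3, 13.8 and 14.4 CPM in the knockout and at 13.0, 13.8 and 13.4 CPM in the wild type. The groups overlapped, with CRE1 the highest library. The log2 fold change came to 0.15 (SE 0.082, adjusted p = 0.138, edgeR) with TMM factors and −0.06 with total counts.

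Tlr2, the subunit shared by both lipopeptide receptors, was higher in the knockout. It stood at 67.3, 69.2 and 66.6 CPM in the knockout and at 50.7, 47.4 and 51.7 CPM in the wild type, so the groups were well apart. The means were 67.7 ± 1.36 and 49.9 ± 2.29 CPM, a 1.36-fold rise with a log2 fold change of 0.44 (SE 0.046, adjusted p = 6.15e-07, edgeR). The rise was called under all 19 other settings, at 0.22 to 0.46.

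Tlr1, one of the 2 partners of Tlr2, was the most strongly lowered of the 10. It stood at 0.619, 0.452 and 1.10 CPM in the knockout, which are 18, 16 and 33 reads, and at 3.89, 4.45 and 4.30 CPM in the wild type, which are 166, 188 and 186 reads. CRE3 was the highest knockout library, and still far below the lowest wild-type library. The log2 fold change came to −2.56 (SE 0.256, adjusted p = 3.31e-07, edgeR), and −2.97 without CRE3. The summed macrophage markers fell further over the same libraries, so that per 100 CPM of those markers Tlr1 was at 0.605 ± 0.269 in knockout libraries against 0.262 ± 0.0167 in wild-type libraries.

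Tlr6, the other partner of Tlr2, did not pass the test. It stood at 7.63, 6.10 and 6.42 CPM in the knockout and at 4.95, 6.21 and 5.95 CPM in the wild type. The groups overlapped, with a log2 fold change of 0.23 (SE 0.131, adjusted p = 0.135, edgeR). Tlr1 and Tlr6 are close paralogs: 13.6% of the 50-base windows of Tlr1 transcripts in the GENCODE annotation also occur in Tlr6, and 7.89% of the 100-base windows do. A read that lies wholly within such a stretch cannot be assigned to either gene by its own sequence. How such reads were counted is not given in the sources used here.

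**Figure D1:**
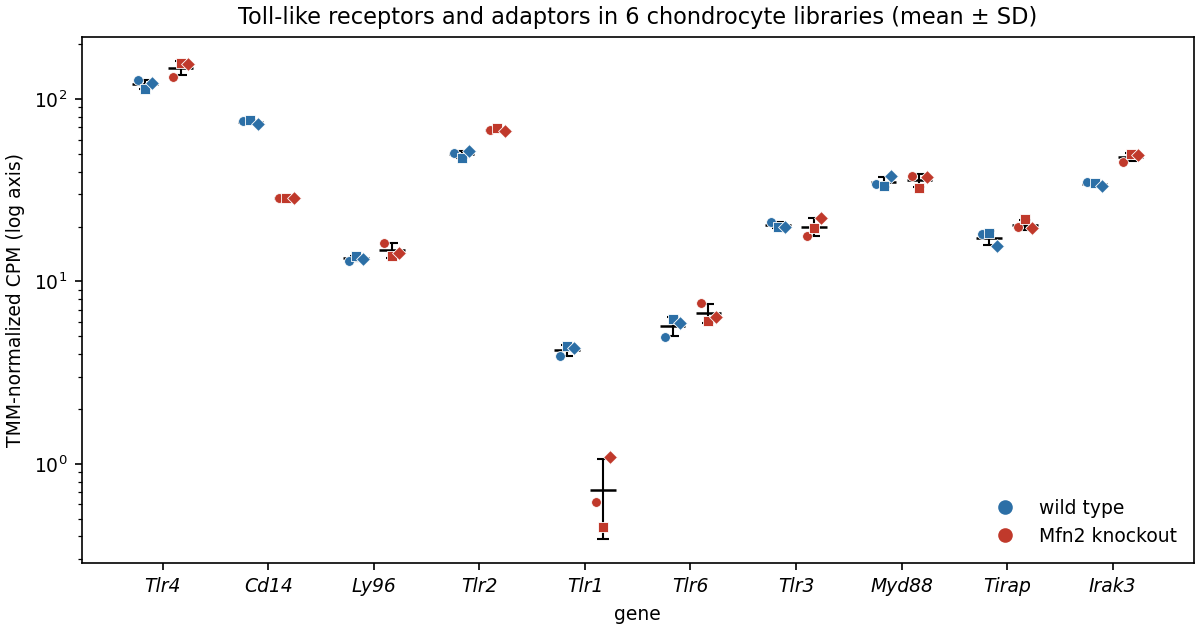
TMM-normalized CPM (log axis) of the 10 genes in each of the 6 libraries, with wild-type libraries in blue and knockout libraries in red. Horizontal bars are means and vertical bars SDs over 3 libraries. Cd14 and Tlr1 are lower in all 3 knockout libraries, and Tlr2, Tlr4, Tirap and Irak3 are higher in all 3 by a smaller step.

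Tlr3, the endosomal receptor for double-stranded RNA, did not pass the test. It stood at 17.8, 19.8 and 22.3 CPM in the knockout and at 21.2, 20.02 and 19.9 CPM in the wild type. The knockout libraries lay on both sides of the wild type, and the log2 fold change came to −0.03 (SE 0.078, adjusted p = 0.753, edgeR). With total counts it was −0.24 and was called lower (adjusted p = 0.0149). An antisense gene overlaps 7.32% of the Tlr3 exons in the GENCODE annotation, and without knowledge of strand its reads cannot be told apart.

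The calls of both adaptors turned on the scaling. Myd88, the common adaptor, stood at 37.7, 32.5 and 37.4 CPM in the knockout and at 34.4, 33.5 and 37.7 CPM in the wild type, with overlapping groups and a log2 fold change of 0.02 (SE 0.065, adjusted p = 0.761, edgeR). With total counts Myd88 was called lower, at −0.18 (adjusted p = 0.0200, edgeR), and so it was in both filtered fits on log2 FPKM. Tirap stood at 19.9, 21.98 and 19.6 CPM in the knockout and at 18.2, 18.5 and 15.6 CPM in the wild type, so the groups did not overlap, with the third wild-type library the lowest. The log2 difference for Tirap was 0.24 (SE 0.079, adjusted p = 0.0176, edgeR). That call was lost without CRE2 (adjusted p = 0.0704) and without the third wild-type library (0.0992), under upper-quartile scaling (0.126) or total-count scaling (0.775), against a 1.2-fold change (0.606) and in the 3 fits on log2 FPKM (up to 0.844), 8 of the 19 settings. Exons of Acaa1a on the opposite strand overlap 11.3% of those of Myd88, and 9.05% of the Tirap exons are covered by an antisense gene.

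Irak3, the inhibitor of the Myd88 route, had the largest rise of the 10. It stood at 45.1, 49.9 and 49.4 CPM in the knockout and at 35.1, 34.5 and 33.3 CPM in the wild type. All knockout libraries were well above all wild-type libraries. The means were 48.1 ± 2.63 and 34.3 ± 0.899 CPM, a 1.40-fold rise with a log2 fold change of 0.49 (SE 0.052, adjusted p = 7.04e-07, edgeR), and the rise was called under all 19 other settings. Exons of Tmbim4 on the opposite strand overlap 5.22% of those of Irak3, whose reads cannot be told apart without strand. Irak3 is best known from monocytes and macrophages, and the macrophage markers were 13.5-fold lower in the same knockout libraries.

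**Figure D2:**
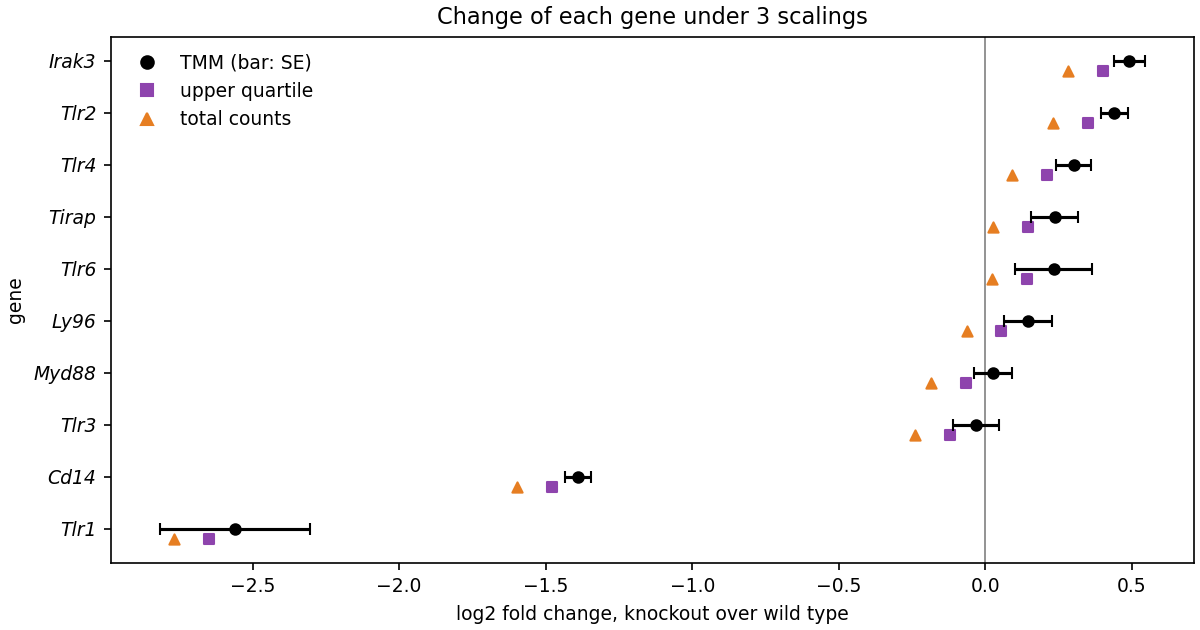
Log2 fold change of each gene, knockout over wild type, with TMM factors (black, bar: SE), upper-quartile factors (purple squares) and total counts (orange triangles). The points of a gene shift together by up to 0.21. Irak3 and Tlr2 stay above 0 and Cd14 and Tlr1 far below 0, while Myd88 and Ly96 change sign.

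Levels of different genes were compared per length, in the deposited FPKM (fragments per kilobase of gene length, scaled to column totals). In the wild type Cd14 was highest at 48.6 ± 0.927 FPKM, above Ly96 (23.9 ± 0.776), Myd88 (19.5 ± 1.25), Tlr2 (16.3 ± 0.749), Tlr4 (15.4 ± 0.892) and Irak3 (11.7 ± 0.288). In the knockout Cd14 was at 16.0 ± 0.178 FPKM, and its libraries overlapped those of Tlr4 (16.4 ± 1.60). There Ly96 was highest (22.9 ± 1.90), followed by Tlr2 (19.1 ± 0.483), Myd88 (17.2 ± 1.31), Tlr4 and Cd14, and then Irak3 (14.2 ± 0.853). Neighbours whose libraries overlapped were Tlr2 with Tlr4 in the wild type, and Myd88 with Tlr4, and Tlr4 with Cd14, in the knockout. Tlr3 (4.33 ± 0.148) was above Tirap (3.85 ± 0.349) in the wild type, and the pair overlapped in the knockout (3.67 ± 0.425 and 3.91 ± 0.273). Tlr1 and Tlr6 were level in the wild type, at 1.39 ± 0.0978 and 1.36 ± 0.160 FPKM, and apart in the knockout, at 0.207 ± 0.0955 and 1.38 ± 0.158 FPKM. The FPKM values imply 1 length per gene, of 8411 bases for Tlr4 and 603 for Ly96, where the exons of the GENCODE annotation join to 5556 and 1021 bases. With annotation lengths, an alternative chosen after seeing the data, Tlr4 was highest in the knockout at 24.9 ± 2.43 and Ly96 stood below Tlr2 and Cd14 at 13.5 ± 1.13, so the order of these genes depends on the lengths. The folds between groups do not.

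Ratios of partner genes within a library do not depend on the scaling between libraries, though their level depends on the lengths. Tlr1 stood at 0.113, 0.103 and 0.237 of Tlr6 in the knockout and at 1.09, 0.996 and 1.00 in the wild type, a 7.35-fold lower mean on the log scale. Tlr1 per Tlr2 was 8.46-fold lower, at 0.0109 ± 0.00523 against 0.0859 ± 0.00889. Tlr6 per Tlr2 overlapped between the groups, at 0.0726 ± 0.00939 against 0.0838 ± 0.0123. Tlr6 thus exceeded Tlr1 per length in each knockout library, with either set of lengths. In the wild type the pair was near equal with the deposited lengths, and Tlr1 was at 0.827 of Tlr6 with annotation lengths.

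Cd14 per Tlr4 was at 1.09, 0.928 and 0.928 in the knockout and at 3.01, 3.42 and 3.04 in the wild type, 3.22-fold lower. Ly96 per Tlr4 overlapped between the groups, at 1.41 ± 0.267 and 1.55 ± 0.142. Tlr2 per Tlr4 was slightly higher in every knockout library (1.17 ± 0.109 against 1.05 ± 0.0302), and Tlr3 per Tlr4 was lower in every one (0.223 ± 0.0146 against 0.281 ± 0.0122). Irak3 per Myd88 was higher, at 0.829 ± 0.105 against 0.6001 ± 0.0501, and Tirap per Myd88 overlapped. For each ratio whose groups did not overlap the two-sided exact permutation test gave p = 0.1, the smallest that 3 against 3 libraries allow, and p = 0.119 adjusted over the 19 ratios computed, so none could pass a threshold of 0.05.

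**Figure D3:**
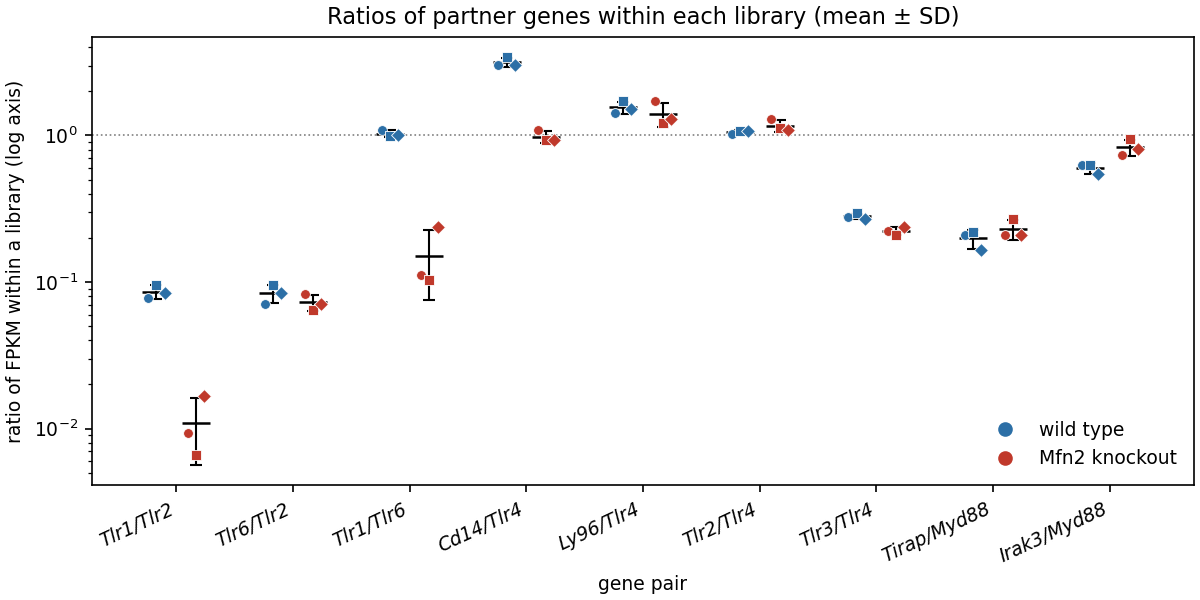
Ratio of deposited FPKM values of 2 genes within each library (log axis), wild type in blue and knockout in red, with means and SDs over 3 libraries and a dotted line at equal levels. Tlr1 against Tlr2, Tlr1 against Tlr6 and Cd14 against Tlr4 drop in the knockout, and the ratios of Tlr6 to Tlr2, Ly96 to Tlr4 and Tirap to Myd88 overlap.

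Of the 10 genes, Tlr1, Tlr6, Cd14 and Irak3 were classed from general knowledge as expressed mainly by macrophages, and the other 6 as also expressed by chondrocytes and other stromal cells. The first class held both falls, 1 rise (Irak3) and 1 gene that did not pass the test (Tlr6), with a median log2 fold change of −0.58. That median lies in the gap between Cd14 (−1.39) and Tlr6 (0.23) and describes no gene of this split class. The second class held 3 rises and no fall among 6, with a median of 0.19. These counts are with TMM factors, where 30.7% of all genes tested were called higher and 32.1% lower. With total counts Tlr4 and Tirap were not called, and Tlr3 and Myd88 were called lower. The shares of all genes were then 18.6% higher and 50.8% lower, so the contrast of the classes depends on the scaling. Per 100 CPM of macrophage markers, the 4 genes of the first class and the 6 of the second all had their 3 knockout libraries above their 3 wild-type libraries. The marker sum was itself 13.5-fold lower, so a gene that fell by less is higher in this ratio by construction. Of 15028 genes tested, 566 fell more than Tlr1, so the count is no result about these genes. The difference in this ratio was 2.17-fold for Tlr1 and 5.17-fold for Cd14, and 13.2-fold (Tlr3) to 19.0-fold (Irak3) for the other 8. Single markers ranged from −6.32 to −2.15 on the log2 scale. Tlr1 (−2.56, SE 0.256) lay within that range, with 1 of 18 markers falling less, and Cd14 (−1.39) outside it. That 1 marker was Cd163, named after its value was seen, with 7, 5 and 4 reads in CRE1 to CRE3 (SE 0.469). The next smallest fall, that of Mpeg1 (−2.67, SE 0.046), was larger than that of Tlr1. The place of Tlr1 within the range thus rests on a gene with few reads.

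The receptors outside the set fell. Of 7 other Toll-like receptors and relatives that were tested, 7 were called lower and none higher by edgeR, with a median log2 fold change of −4.48. Over all genes tested 32.1% were called lower. Tlr13, an endosomal sensor of bacterial ribosomal RNA, was at 1.64 ± 0.624 CPM in knockout libraries against 58.4 ± 0.916 CPM in wild-type libraries (log2 fold change −5.16, SE 0.118). Cd180, a surface relative of Tlr4 known from B cells and myeloid cells, was at 0.635 ± 0.135 and 28.0 ± 2.44 CPM (−5.43, SE 0.137). The endosomal receptors for single-stranded RNA, Tlr7 (−2.89) and Tlr8 (−4.35), fell too. The DNA receptor Tlr9 had 0, 2 and 4 reads in CRE1 to CRE3 and 59 to 69 in wild-type libraries. Ly86, the partner of Cd180, had 1 read in each knockout library and 61 to 71 in wild-type libraries. The size of either fall is therefore imprecise. The list's median of −4.48 is the fitted value of Tlr9 (SE 0.534) and shares that limit. Tlr5, the flagellin receptor, was lower by 0.41 on the log2 scale with overlapping groups. The median of the 18 macrophage markers was −4.55 in the same fit (Csf1r −4.81, Mrc1 −4.71, C1qc −5.96), and the part of macrophage transcripts in the fall of these receptors was not tested.

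Of 10 genes of proteins that carry, load or assist the receptors, 3 were called higher and 7 lower (median log2 fold change −0.52). Over all genes tested 30.7% were higher and 32.1% lower, so the share higher was near that of all genes. Against a 1.2-fold change the 7 lower calls became 4, where 20.8% of all genes were lower. Lbp, the plasma protein that delivers lipopolysaccharide to Cd14, rose from 128 ± 1.53 to 344 ± 2.85 CPM (log2 fold change 1.43, SE 0.030, adjusted p = 1.83e-15, edgeR), the reverse of Cd14. The scavenger receptor Cd36, which assists Tlr2 with Tlr6, fell from 104 ± 3.83 to 13.7 ± 1.06 CPM (−2.92), and the signalling adaptor Pik3ap1 fell from 58.9 ± 1.90 to 1.32 ± 0.129 CPM (−5.49). Among 3 other adaptors, Ticam2, which links Tlr4 to the TRIF route, rose 3.00-fold from 2.63 ± 0.284 CPM. Ticam1, which encodes TRIF itself, did not pass the test (0.15, adjusted p = 0.0523, edgeR), though without CRE2 the number called higher was 2, and Sarm1, a regulator best known from neurons, fell 4.08-fold to 0.469 ± 0.114 CPM.

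Downstream of the adaptors, 8 of 21 proximal kinases and ubiquitin ligases were called higher and 3 lower, with a median of 0.10 that became −0.11 with total counts, where 5 were higher and 11 lower. Over all genes 30.7% were higher and 32.1% lower with TMM factors, and 18.6% and 50.8% with total counts, so these counts were near the background. Peli2 (log2 fold change 0.81) and Traf6 (0.74), ubiquitin ligases of the Myd88 route, and the kinase Irak1 (0.50) rose with TMM factors. Traf6 was at 46.4 to 47.7 CPM in knockout libraries and at 26.6 to 29.1 CPM in wild-type libraries. Of 12 tested inhibitors and modulators, 6 were higher and 2 lower (4 and 4 with total counts). The 2 lower calls became 0 without CRE2 or against a 1.2-fold change and 1 without the first wild-type library. The list had a median of 0.20, which became −0.01 with total counts. The RNase Zc3h12a rose 3.76-fold, the deubiquitinase Tnfaip3 rose 3.63-fold, and Il1rl1, the receptor of interleukin 33 counted here as a modulator, rose 2.15-fold.

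Among 10 tested genes of endogenous ligands, 6 were higher and 3 lower, with a median log2 fold change of 0.70. Over all genes tested 30.7% were higher and 32.1% lower, so the share lower was near that of all genes. The acute-phase protein Saa3 rose 16.8-fold, and the matrix proteins Tnc and Vcan, known ligands of Tlr4 and Tlr2, rose 2.92-fold and 3.21-fold. Tnc went from 188 to 201 CPM in the wild-type libraries to 557 to 577 CPM in the knockout libraries. The 3 lower calls, named after their values were seen, were Bgn (log2 fold change −0.25), Hspd1 (−0.23) and Hmgb1 (−0.15). Bgn, another matrix gene, averaged 2171 CPM over knockout libraries against 2582 CPM over wild-type libraries. Matrix genes of this list thus moved in both directions. Against a 1.2-fold change the list had 5 higher and 0 lower calls. Known targets of the Myd88 route gave 9 rises and 2 falls among 11 (median 3.12). The smallest p-values were those of the iron-binding protein gene Lcn2 (8.67-fold), the chemokine gene Cxcl1 (15.8-fold) and the prostaglandin synthase gene Ptgs2 (28.3-fold), and the largest rise was that of the cytokine gene Il6 (36.0-fold), named after its value was seen. The falls were those of Tnf (−3.50) and the chemokine Ccl3 (−1.34), both named after their values were seen. These targets also answer to other receptors, and the lists were chosen with results of these libraries known, so their direction is no independent evidence about the receptors. Targets of the TRIF route and IRF3 gave 3 rises and 3 falls among 8 (3 and 5 with total counts). With TMM factors that is 37.5% in each direction, near the shares of all genes. Ccl5 was 3.16-fold and Isg15 1.65-fold higher, and Ifit2 was lower by 0.86 on the log2 scale.

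**Figure D4:**
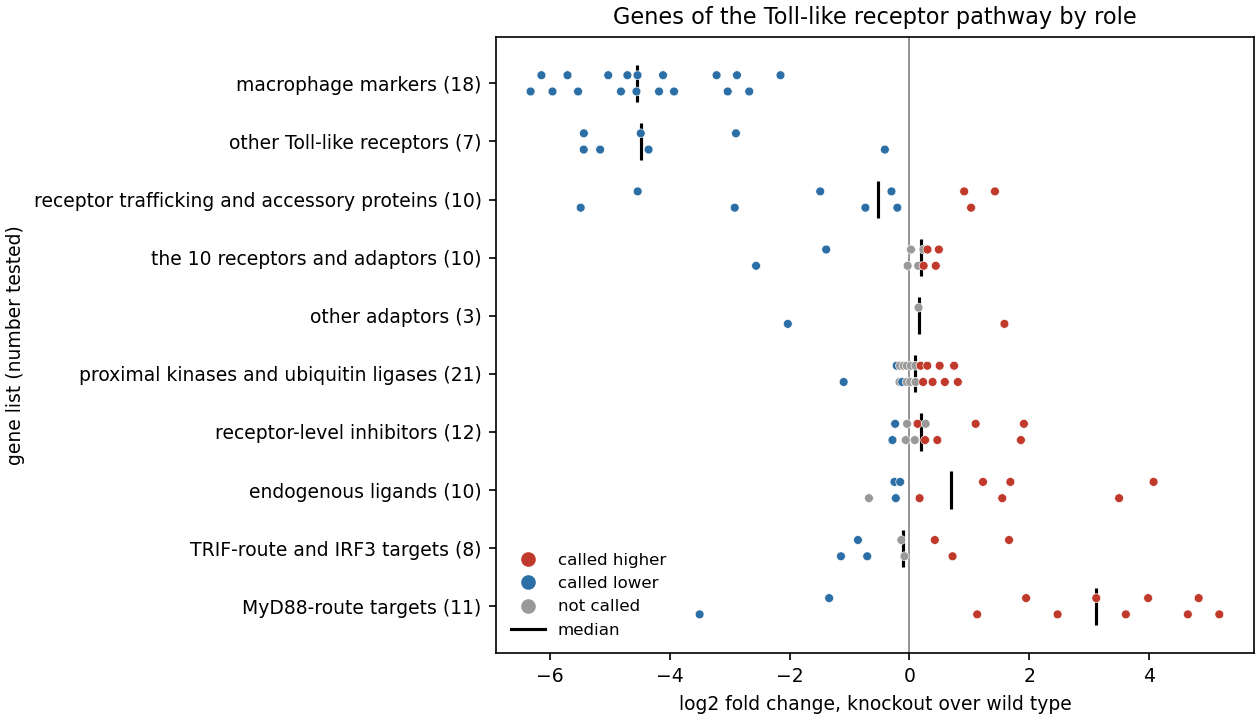
Log2 fold change, knockout over wild type, of each tested gene of 10 lists (the number tested in brackets), with red for genes called higher, blue for lower and grey for not called. Black bars are list medians. Macrophage markers and other Toll-like receptors lie far below 0, the 10 receptors and adaptors near 0 apart from Tlr1 and Cd14, and targets of the Myd88 route mostly above 0.

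The genes whose profile over the 6 libraries was nearest to that of Tlr2 were Aven, Brd1 and Zwint, with root mean square differences of 0.025 to 0.027 in centred log2 CPM over 11309 genes of mean FPKM at least 1. Those nearest to Tlr4 were Pura, Ddx3x and Rps6ka3, at 0.016 to 0.028. With 2 groups of 3 libraries this likeness rests mainly on the size of the difference between the groups.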

How the data were processed

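RNA of mouse chondrocytes was sequenced in 6 libraries, 3 per genotype, with TRIzol extraction and a VAHTS library kit named in the labels' protocols. Per the submitters' processing notes, the tools were HTSeq, HISAT2 and fastp and the build GRCm39. The sources used here give no annotation or strand setting. The authors deposited raw read counts and FPKM per gene symbol. In 100% of 14394 genes checked the deposited FPKM equals the count over the column total and 1 length per gene, within 0.1%. Columns CRE1 to CRE3 show the knockout group but not single samples, so they were used as unnumbered replicates. Within a group, library pairs differed beyond counting error (chi-square per degree of freedom 3.19 to 8.09).

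The quasi-likelihood test of edgeR 4.0.16 (R 4.3.3) was run on the counts with genotype as the only term and TMM scaling, after filterByExpr (minimum count 10). P-values were adjusted by Benjamini-Hochberg over 15028 genes at 0.05, two-sided. SEs are the log2 fold change divided by the root of F. The test was checked on simulated counts, in which far fewer genes changed than were called here, evenly up and down. That check therefore does not cover the choice of scaling. Alternatives were other scalings, filters and tests (DESeq2 1.42.0, limma 3.58.1 on voom values, and on log2(FPKM + 1) and log2(FPKM + 0.1)), a 1.2-fold threshold, each library left out, and a block on the column number. Levels per length were also recomputed with annotation lengths, chosen after seeing the data. Ratios within a library were compared by exact permutation in scipy 1.17.1. Promoters came from RefSeq (GRCm38.p6) and transcripts from GENCODE M21, neither the build of the files. All 10 genes, Mfn2, the 3 members of each further list with the smallest p, the genes classed as macrophage-expressed and the 3 genes nearest to Tlr2 and Tlr4 are named. The genes, lists and classes were chosen with earlier results of these data known.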

Additional observations from a re-analysis of the deposited data

How the results depend on the processing

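Cd14, Tlr1, Tlr2 and Irak3 kept direction and call under each alternative that tested them (19, and 17 for Tlr1, which a minimum mean FPKM of 1 removes). The number of the 10 genes called higher, 4, was 2 with total counts, against a 1.2-fold change and in the 3 fits on log2 FPKM, and 3 to 4 when a library was left out. The number called lower, 2, was 4 with total counts (Tlr3 and Myd88 added), 3 in both filtered log2 FPKM fits (Cd14, Tlr3 and Myd88, with Tlr1 removed) and 2 in each fit without a library. Signs turned for 3 genes that were not called with TMM factors. Ly96 gave −0.064 with total counts, −0.062 on log2(FPKM + 1) with and without the filter and −0.064 on log2(FPKM + 0.1). Myd88 gave −0.066 with upper-quartile factors, −0.185 with total counts, −0.174 on log2(FPKM + 1) with and without the filter, −0.182 on log2(FPKM + 0.1), and −0.010 to 0.108 without single libraries. Tlr3 gave −0.104 to 0.047 without single libraries. Rises made up 48.9% of all called genes under TMM scaling, against 38.0% under upper-quartile scaling, 26.8% under total-count scaling and 28.1% on filtered log2(FPKM + 1). The cause of these differences was not tested beyond the shift of all genes given above. The replicate block on the column number left the counts at 4 higher and 2 lower. Same-numbered libraries showed no visible common variation (r = −0.057, 0.006 and −0.042). With 3 libraries per group this cannot exclude that equal numbers mark a shared origin of small effect. Tlr1 has 16 to 33 reads per knockout library, which limits its precision.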
